A study of Homo sapiens with 12 samples.

Results

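The genes described here make, break down and sense sphingosine 1-phosphate, a lipid messenger, and they were followed in PANC-1 cells with and without a hairpin against TIMP1. Of 10 genes chosen (SPHK1, SPHK2, SGPL1, SGPP1, S1PR1, S1PR2, S1PR3, S1PR5, CERS2 and ASAH1), 9 were among the 20046 genes named on the array, by 13 of its 47323 probes, and 7 of these probes, for 6 genes, were detected, meaning that 6 or more of the 12 arrays gave the probe a detection p below 0.05. No probe carried the symbol SPHK2, so SPHK2 was not analysed here. All probes of a member's symbol or older alias were taken, whatever their level. The genes were selected by symbol, around SPHK1, with the intensities of the knockdown and control arrays already in view, so the difference between the groups is given for them as a description with no test. PANC-1 is an established human line of pancreatic ductal carcinoma. The 6 control samples (labelled WildType) were PANC-1 cells with an integrated empty pLKO.1 puro lentiviral vector, and the 6 knockdown samples were PANC-1 cells with pLKO.1 carrying a short hairpin RNA against human TIMP1; all 12 were grown with puromycin. The labels do not say how many hairpins or clones were used, nor that the replicates were separate cultures, so the spread between samples may be technical.

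Sphingosine kinases add a phosphate to sphingosine, which acid ceramidase releases from ceramide. The product is carried out of the cell, binds G protein-coupled receptors on the same or other cells, and is removed inside the cell by phosphatases or cut irreversibly by a lyase. Ceramide is known for favouring cell death and sphingosine 1-phosphate for favouring survival and migration, and SPHK1 is often studied in carcinomas for that reason.

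TIMP1, the target of the hairpin, had a normalised log2 intensity of 13.75 ± 0.07 (SD, n = 6) in the controls and 13.56 ± 0.06 (n = 6) in the knockdown. This difference of log2 means is a level 12.5% lower. The normalised values did not overlap (exact two-sided permutation p = 0.00216, the smallest that 6 against 6 can give; limma adjusted p = 0.101). Before normalisation the signals did overlap, from 12620.1 to 15948.8 in the controls and from 10917.5 to 13185.1 in the knockdown. Knockdown 2 and knockdown 6 had 17360 and 17680 detected probes, more than the 15681 to 16985 of the other arrays. Of 6 markers of duct and epithelial cells 5 were detected, and CDH1 was detected on no array. Of 4 leukocyte markers CD14 and CD79A were detected, and PTPRC and CD3E were not on any array. Of 4 endothelial markers PECAM1 was detected, and of 4 fibroblast and stellate markers none. Their probes' summed signals lay between 3246 and 3654 in the controls and 3358 and 3913 in the knockdown for leukocytes, between 1003 and 1149 and between 1003 and 1325 for endothelium, and between 1090 and 1216 and between 1129 and 1246 for fibroblasts. Of 5 acinar and islet markers PRSS1 was detected, and the summed signal was 4119 to 4529 in the controls and 3642 to 4146 in the knockdown. The precision of all values is limited by how many arrays there were, and in a bulk sample fewer cells of a type and less RNA per cell cannot be told apart.

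SPHK1, the kinase on which the results turn, lies on chromosome 17 and has 3 annotated start sites in RefSeq (GRCh38.p14, plus strand). Their promoter windows, 250 bases before to 50 after each start, are shown because 8 transcription factors reported at this gene were among the genes followed. Capitals mark the AP-1 motif of JUN and FOS (TGACTCA or TGAGTCA) and the GC box of SP1 (GGGCGG or CCGCCC); both strands were searched.
SPHK1 start site 1, chr17:76382954-76383253: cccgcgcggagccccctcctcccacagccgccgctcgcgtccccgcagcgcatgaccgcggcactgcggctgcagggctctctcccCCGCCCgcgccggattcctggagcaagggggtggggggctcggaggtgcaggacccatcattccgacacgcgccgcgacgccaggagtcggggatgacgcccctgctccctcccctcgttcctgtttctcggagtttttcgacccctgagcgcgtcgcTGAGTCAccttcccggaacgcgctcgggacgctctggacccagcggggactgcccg
SPHK1 start site 2, chr17:76384359-76384658: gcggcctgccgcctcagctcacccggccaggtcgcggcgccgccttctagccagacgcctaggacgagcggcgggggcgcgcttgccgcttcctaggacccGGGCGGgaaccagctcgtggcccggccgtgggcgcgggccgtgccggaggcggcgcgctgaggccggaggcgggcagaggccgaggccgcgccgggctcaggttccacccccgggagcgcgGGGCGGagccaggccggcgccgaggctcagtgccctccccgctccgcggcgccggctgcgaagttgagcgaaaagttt
SPHK1 start site 3, chr17:76385028-76385327: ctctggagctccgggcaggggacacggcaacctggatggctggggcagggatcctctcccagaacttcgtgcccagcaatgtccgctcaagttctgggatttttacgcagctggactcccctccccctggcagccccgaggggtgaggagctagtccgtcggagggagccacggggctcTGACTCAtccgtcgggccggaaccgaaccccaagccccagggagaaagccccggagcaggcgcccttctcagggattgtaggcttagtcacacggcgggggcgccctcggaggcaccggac
Positions are those of the first base of a match, counted from the start site. An AP-1 match began at -6 in the window of start site 1 and at -71 in that of start site 3, and none lay in the window of start site 2. Of 35116 promoter windows of the same length in RefSeq, 4.95% held an AP-1 match. GC boxes, found in 45% of all windows, began at -164 of start site 1 and at -149 and -28 of start site 2. The hypoxia response element of HIF1A and EPAS1 (ACGTG or GCGTG), present in 48.4% of windows, matched once, at -98 of start site 1. The AP-2 motif of TFAP2A (GCCNNNGGC), present in 23.2%, matched 3 times, at -125, -107 and -87 of start site 2. The E2F motif (TTTCCCGC, TTTCGCGC, TTTGCCGC or TTTGGCGC) was in none of these windows and in 3.31% of all. A match is a run of letters and does not show that a factor was bound.

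**Figure D1:**
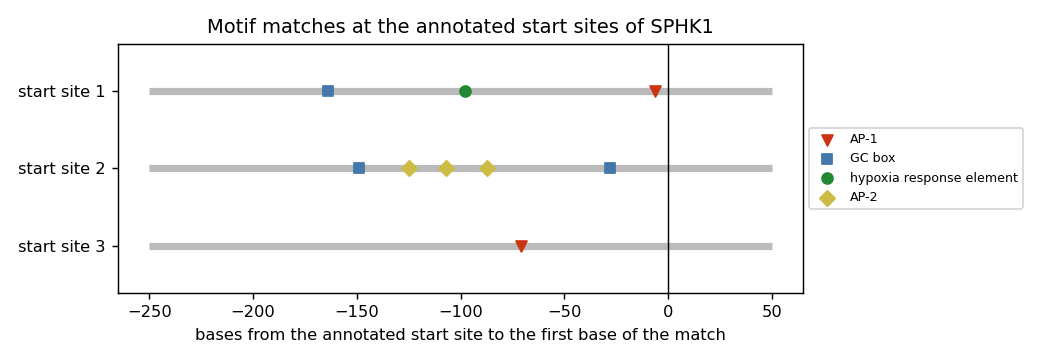
Each grey bar is the window around 1 annotated start site of SPHK1, the x axis gives bases from that start site to the first base of a match, and symbols mark the motifs. AP-1 matches lie at -6 of start site 1 and at -71 of start site 3, and start site 2 has 2 GC boxes and 3 AP-2 matches.

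SPHK1 phosphorylates sphingosine, mostly at the plasma membrane and in the cytosol. Its probe ILMN_2357134, annotated to transcript NM_021972, was detected on 0 of 6 control arrays and on 6 of 6 knockdown arrays. The signal on control arrays 1 to 6 was 238.8, 201.5, 226.8, 229.6, 229.3 and 226.0. On knockdown arrays 1 to 6 it was 279.4, 262.5, 248.3, 265.8, 269.3 and 237.4. On this linear scale before normalisation the groups overlapped at their edge, since control 1 lay above knockdown 6.

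The lowest signal that counted as detected differed between arrays, from 233.2 to 269.2 in the controls and from 211.1 to 274.2 in the knockdown, with the lowest on knockdown 6. After background correction and quantile normalisation the log2 intensity of this probe was 6.41, 6.19, 6.32, 6.25, 6.27 and 6.29 on control arrays 1 to 6. It was 6.73, 6.86, 6.65, 6.71, 6.81 and 6.76 on knockdown arrays 1 to 6. Every knockdown array then lay above every control array, with a gap between 6.41 on control 1 and 6.65 on knockdown 3. The means were 6.29 ± 0.08 (SD, n = 6) and 6.75 ± 0.07 (n = 6), a log2 difference of 0.46 ± 0.05 (SE), or 1.38-fold.

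That fold starts from values below the detection limit. Set against the lowest detected normalised intensity of each control array, SPHK1 was at least 1.10-fold higher in the knockdown (the mean of the knockdown group over the mean, per control array, of the lowest detected log2 intensity or the probe's own, whichever was higher). This bound and those below rest on background-corrected values and were not computed without that correction. Before normalisation the mean knockdown signal of SPHK1 was 260.5, inside the range of the lowest detected signals on the controls (233.2 to 269.2). The detection p was between 0.0636 and 0.103 on the controls and between 0.0247 and 0.0455 in the knockdown, so both groups were close to the limit of 0.05. Without background correction the log2 difference of SPHK1 was 0.23, and the groups still did not overlap. Of all 47323 probes, 3 (0.00634%), that of SPHK1 included, were detected on every knockdown array and on no control array, and 0 the other way round. SPHK1 was chosen with this contrast known, so nothing is read from that count. The lowest detected log2 intensity ran from 6.55 to 6.71 on the controls and from 6.37 to 6.67 in the knockdown. Its part in the count was not tested. The other probes of the 3, named after their values were seen, were those of FEZ1, an adaptor of axonal transport, at least 1.53-fold higher, and GJA3, a gap junction protein of the lens, at least 1.08-fold higher.

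The probe of SPHK1 annotated to NM_182965 (ILMN_1774153) was detected on 0 of the 12 arrays, and no fold is given for it. Its signal was between 141.7 and 159.5 on the controls and between 139.9 and 166.2 in the knockdown, far under the lowest detected signals. Only 1 of the 2 SPHK1 probes therefore carried the difference, and which transcripts each probe can bind was not tested here.

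**Figure D2:**
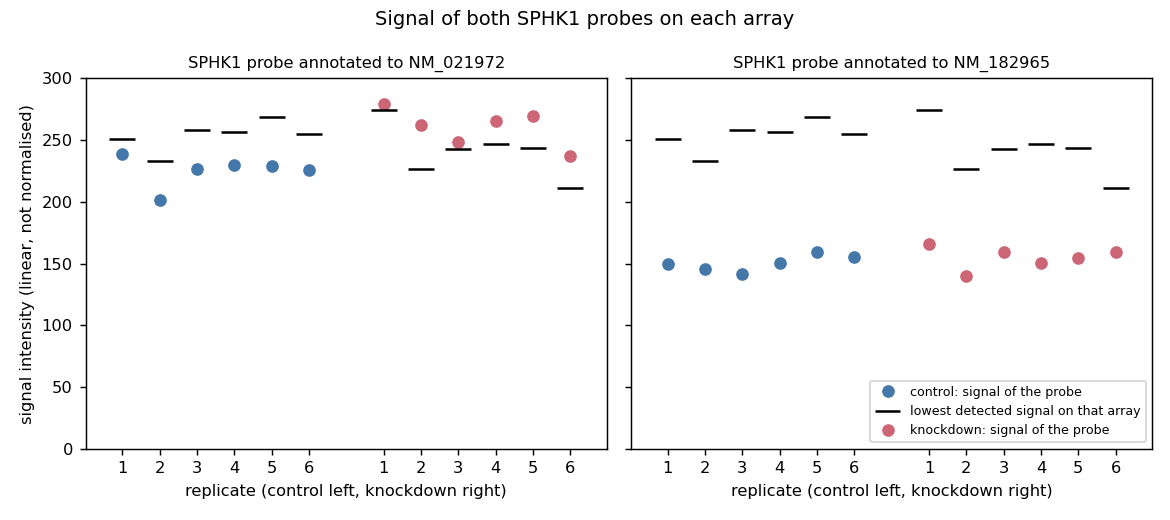
Points give the linear signal of both SPHK1 probes on each of the 12 arrays, and black dashes give the lowest detected signal of that array. The NM_021972 probe lies under the dash on all 6 control arrays and above it on all 6 knockdown arrays, and the NM_182965 probe lies under it on all 12.

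Of the enzymes that remove sphingosine 1-phosphate, the lyase was expressed and the phosphatase was not detected. SGPL1, the lyase of the endoplasmic reticulum that cuts the lipid irreversibly, was detected on all 12 arrays. Its log2 intensity was 8.57, 8.51, 8.28, 8.49, 8.48 and 8.44 on control arrays 1 to 6 and 8.57, 8.79, 8.51, 8.59, 8.55 and 8.83 on knockdown arrays 1 to 6. The groups overlapped, and knockdown 6 and knockdown 2, the arrays with most probes above background, were highest. The log2 difference was 0.18 ± 0.07 (SE), and it was 0.06 with the number of detected probes as a covariate. The same setting gave 0.43 for SPHK1 and called 0 of all 16495 probes, SPHK1 included. Detected probes numbered 15681 to 16565 on the controls and 15898 to 17680 in the knockdown. Group and detected-probe number are thus partly confounded, and the part of either in these differences was not tested. SGPP1, a phosphatase that turns the lipid back into sphingosine, was detected on no array, with detection p between 0.0779 and 0.182.

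Of the 4 receptors chosen, S1PR1 and S1PR3 were detected and S1PR2 and S1PR5 were not. S1PR1 couples to Gi and is best known from lymphocytes and endothelium. Its probe ILMN_1653504 had a log2 intensity of 7.72, 8.0, 7.26, 7.82, 7.91 and 7.35 on control arrays 1 to 6, and of 8.05, 7.37, 7.12, 7.84, 7.96 and 7.42 on knockdown arrays 1 to 6. Both groups covered the same range, and the SDs of 0.30 and 0.38 were the largest among the detected members. Values from 7.12 to 7.42 on control 3 and 6 and knockdown 2, 3 and 6 stood apart from those of 7.72 or more on the other arrays, within both groups alike. The log2 difference between the groups was -0.05 ± 0.18 (SE) and 0.07 without knockdown 2 and 6. The second S1PR1 probe, ILMN_3235853, was detected on no array, so the probes of this gene disagreed, and the reason was not tested. All samples were of the PANC-1 line, so leukocytes and endothelial cells were not part of the design.

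S1PR3 couples to Gi, Gq and G12/13. Its log2 intensity was 6.96, 7.23, 6.88, 7.23, 7.05 and 7.13 on control arrays 1 to 6 and 7.04, 7.10, 7.34, 7.44, 7.22 and 6.79 on knockdown arrays 1 to 6. The lowest and the highest of the 12 values were both knockdown arrays, and the log2 difference was 0.08 ± 0.10 (SE). S1PR3 was detected everywhere but near the limit, with detection p between 0.0169 and 0.0416. S1PR2, a receptor that couples to G12/13, had detection p between 0.184 and 0.814, and S1PR5, best known from oligodendrocytes and natural killer cells, between 0.858 and 0.983. S1PR4, the remaining receptor of the family, was also detected on no array.

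On the ceramide side, CERS2 was detected on all 12 arrays by both of its probes, and its groups overlapped. CERS2 makes ceramides with very long acyl chains. Its probe annotated to NM_022075 had log2 intensities between 11.10 and 11.26 on the controls and between 11.03 and 11.24 in the knockdown, and the one annotated to NM_181746 had means of 10.88 ± 0.08 (SD, n = 6) and 10.86 ± 0.10 (n = 6). The log2 differences were -0.06 ± 0.05 and -0.02 ± 0.05 (SE), and with scaling by the median alone they were 0.08 and 0.12, beside a median of 0.12 for all detected probes under that scaling. ASAH1, the acid ceramidase of the lysosome, lay at the detection limit. Its probe ILMN_1684054 was detected on 4 of 6 control and 6 of 6 knockdown arrays, with log2 intensities of 6.36, 7.10, 6.82, 6.76, 6.67 and 6.88 on control arrays 1 to 6 and 6.68, 6.95, 6.97, 6.94, 7.06 and 6.86 on knockdown arrays 1 to 6. The knockdown arrays lay within the range of the controls, and the log2 difference was 0.14 ± 0.11 (SE). Its detection p was 0.0506 on control 5, just outside the limit, and 0.0468 on control 3, just inside it, as deposited. The other ASAH1 probe was detected on no array.

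**Figure D3:**
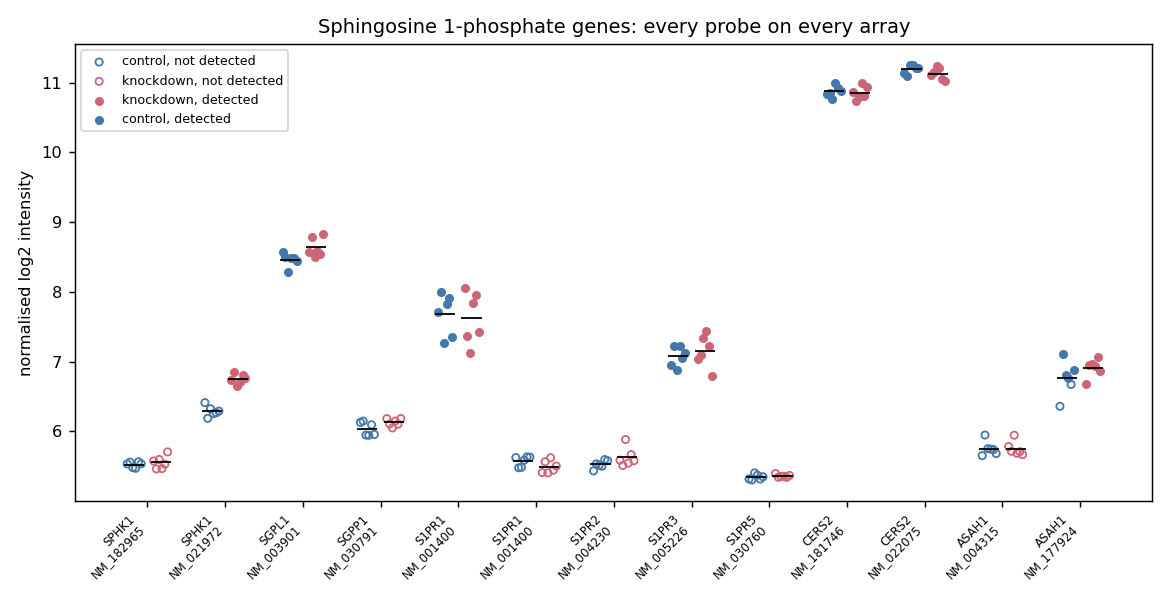
Normalised log2 intensity of all 13 probes, with 1 point per array, filled where the detection p was under 0.05 and open otherwise, and a line at each group mean. The groups separate for the NM_021972 probe of SPHK1, from 6.19 to 6.41 in the controls and from 6.65 to 6.86 in the knockdown, and overlap for the other 12 probes; levels of different probes cannot be compared.

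Of the 13 member probes, 6 were detected on no array, 5 on all 12 and 2 on some. Of the 7 that entered the fit across all probes, 1 was called (limma, Benjamini-Hochberg adjusted p under 0.05), the NM_021972 probe of SPHK1, against 0.303% of all 16495 detected probes (0.255% higher and 0.0485% lower). The same 1 probe had groups that did not overlap, against 1.56% of all detected probes (1.02% with the knockdown above). The members were chosen with this contrast known and the SPHK1 probe passed the filter only through the knockdown arrays, so nothing is read from these counts. Of the 7 probes 4 had a log2 difference above 0 and 3 one below it, with a median of 0.08 beside 0.01 for all detected probes.

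The next comparison asked whether other genes of the same pathway, which were not members, differed. Their lists too were chosen with earlier results of these data known, so their limma p-values give no independent support. Of 92 such genes in 7 lists, 63 were detected, and 1 passed the test on its brightest probe, against 0.389% of all 9780 genes with a detected probe. An unadjusted limma p under 0.05 was found for 13 of the 63, against 15% of those 9780 genes, and the count for each list is to be read against that share. SPNS2, which carries sphingosine 1-phosphate out of the cell, rose from a log2 intensity of 7.99 ± 0.14 (SD, n = 6) to 8.47 ± 0.17 (n = 6). Its values were 7.85, 7.93, 8.09, 7.88, 7.99 and 8.22 on control arrays 1 to 6. They were 8.19, 8.63, 8.36, 8.55, 8.54 and 8.57 on knockdown arrays 1 to 6. Knockdown 1 lay below control 6 and the other knockdown arrays lay above every control. The log2 fold change was 0.48 ± 0.08 (SE; 95% confidence interval 0.30 to 0.67), or 1.4-fold (limma adjusted p = 0.0444), with 6 arrays per group.

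On the linear scale before normalisation SPNS2 ranged from 379.4 to 453.0 in the controls and from 475.1 to 554.4 in the knockdown, without overlap, and it was detected on all 12 arrays. The call stood close to the threshold. Without control 1, 2, 3, 4 or 5, or without knockdown 2, 3, 4, 5 or 6, the limma adjusted p for SPNS2 was between 0.0875 and 0.108, while without control 6 it was 0.0307 and without knockdown 1 it was 0.00926. With the number of detected probes as a covariate the log2 fold change of SPNS2 was 0.40 (adjusted p = 0.456). SPHK1, on the only probe of it that was detected and from below detection, and SPNS2, from a detected level, each had a higher mean in the knockdown. No joint change of the kinase and the exporter was tested.

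The other genes of export, hydrolysis and onward metabolism did not pass; 6 of 11 were detected, 5 with a difference above 0, and 3, SPNS2 included, had an unadjusted limma p under 0.05. ABCA1, a lipid exporter that can carry the lipid onto lipoproteins, was higher on every knockdown array than on any control, from 11.05 to 11.13 against 11.15 to 11.39, with a log2 fold change of 0.15 ± 0.05 (SE; limma adjusted p = 0.19). The phosphatases PLPP3 and PLPP2, which act on lipid phosphates outside the cell, had 0.15 (adjusted p = 0.31) and 0.05 (adjusted p = 0.575), and the other probes of PLPP2 had 0.07 and -0.25.

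None of the 9 detected genes of ceramide and sphingosine supply (of 20) passed, 1 had an unadjusted limma p under 0.05, and 8 lay above 0. SPTLC1, a subunit of the enzyme that starts sphingolipid synthesis, had a log2 fold change of 0.18 ± 0.06 (SE; limma adjusted p = 0.246) on its brightest probe and 0.04, 0.14 and 0.00 on its other 3. CERS6, another ceramide synthase, had 0.07, DEGS1, the desaturase that completes ceramide, 0.05, and SPTSSA, a small subunit of the first enzyme, 0.04. In the branches to sphingomyelin, glycosphingolipids and ceramide 1-phosphate none of 11 detected genes (of 14) passed, 4 had an unadjusted p under 0.05, and 8 lay above 0. GBA2, a glucosylceramidase outside the lysosome, had 0.31 ± 0.11 (adjusted p = 0.231), SMPD4, a neutral sphingomyelinase, 0.30 ± 0.10 (adjusted p = 0.217), and UGCG, which makes glucosylceramide, 0.10. GBA2 and SMPD4 lay near the detection limit, with detection p up to 0.0481 and 0.0623 on the controls. GBA2 was highest on knockdown 2 (7.60) and SMPD4 on knockdown 6 (7.37), the arrays with most detected probes. CERT1, which carries ceramide to the Golgi, had -0.09 on its brightest probe and 0.08 on the other.

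Behind the receptors, none of 13 detected coupling genes (of 16) passed, 2 had an unadjusted limma p under 0.05, and 11 lay above 0. GNAQ, the Gq alpha subunit, had a log2 fold change of 0.35 ± 0.11 (SE; limma adjusted p = 0.211), from 6.81 to 7.28 on the controls and from 7.11 to 7.74 in the knockdown. It lay near the detection limit, with detection p up to 0.0468 on the controls, and was highest on knockdown 2 (7.74) and knockdown 6 (7.53). The small GTPase RAC1 had -0.12 ± 0.04 (adjusted p = 0.244), GNA13 had 0.08, and ARHGEF1 had 0.09 on its brightest probe and -0.03 on the other. Of the 7 detected binding partners and kinases of SPHK1 (of 13) none passed, 0 had an unadjusted p under 0.05, and 3 lay above 0. MAPK3, a kinase known to phosphorylate SPHK1, had 0.13 (adjusted p = 0.508), the adaptor FHL2 had -0.07 on its brightest probe and 0.00079 on the other, the elongation factor EEF1A1 had -0.06 and the phosphatase subunit PPP2CA had -0.03 on its brightest probe and 0.0018 on the other.

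Of the 8 transcription factors reported at the SPHK1 gene, all detected, none passed, 1 had an unadjusted limma p under 0.05, and 5 lay above 0. EPAS1, a hypoxia-inducible factor, had a log2 fold change of 0.14 ± 0.04 (SE; limma adjusted p = 0.195). JUN, of the AP-1 complex, had 0.07 ± 0.04 (adjusted p = 0.4), from 10.79 to 10.8686 on the controls and from 10.8692 to 11.02 in the knockdown. Its groups thus all but touched, and its signals before normalisation overlapped. FOS, its partner in AP-1, had 0.32 ± 0.15 (adjusted p = 0.366) and was detected on 1 control and 5 knockdown arrays. SP1 had 0.06 (adjusted p = 0.644).

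Genes known to be induced by sphingosine 1-phosphate through SRF or YAP, among other routes, lay on both sides of 0. Of 9 detected (of 10) none passed, 2 had an unadjusted limma p under 0.05, 4 were above 0 and 5 below. AMOTL2, a YAP target, had a log2 fold change of 0.26 ± 0.10 (SE; limma adjusted p = 0.274) and was detected on 3 control and 6 knockdown arrays. The matrix protein CCN2, also a YAP target, had -0.13 (adjusted p = 0.359) on its brightest probe and -0.21 (adjusted p = 0.257) on the other. EGR1, an immediate early factor, had -0.09 (adjusted p = 0.314) and the zinc finger factor KLF6 had 0.08 (adjusted p = 0.472). With scaling by the median alone CCN2, EGR1, RAC1, CERT1, FHL2 and PPP2CA had log2 fold changes above 0, each below the median of 0.12 that all detected probes had under it. Over all 63 genes 44 were above 0 and 19 below, with a median of 0.04 beside 0.01 over all detected probes, of which 53.5% were above 0, and the medians of the 7 lists ran from -0.04 to 0.10.

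**Figure D4:**
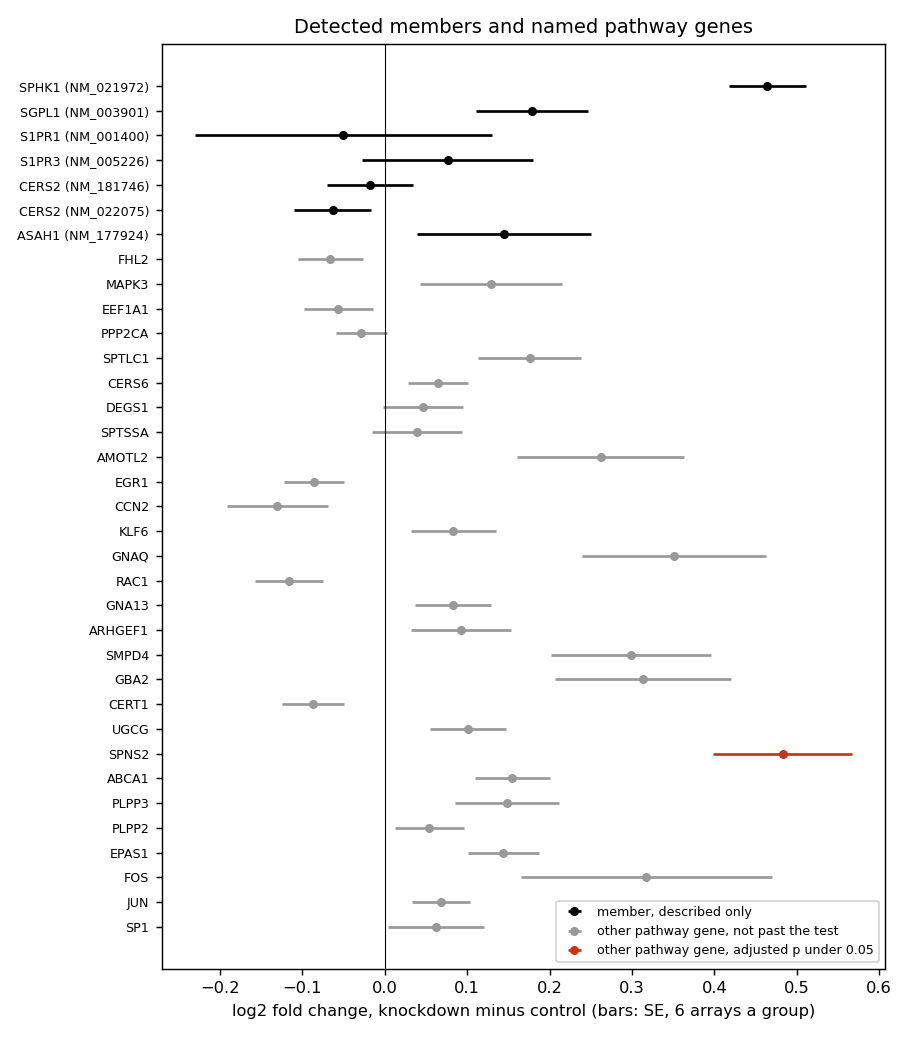
Log2 fold change of the 7 detected member probes and of the 28 named pathway genes, knockdown minus control, with bars for the SE over 6 arrays per group. SPNS2 at 0.48 is the pathway gene past the test, from lists also chosen with earlier results of these data known. SPHK1 at 0.46 is a member and is described only.

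Genes whose pattern over the 12 arrays was most like that of the detected SPHK1 probe were ranked by Pearson's r among genes with a detected probe, as a description. Across all 12 arrays they were MRPS31 (r = 0.948), a mitochondrial ribosomal protein, PAPSS2 (0.929), which makes the sulfate donor of the cell, NIBAN2 (0.925), ADAMTS9 (0.906), a secreted metalloproteinase, and KANK1 (0.902). These r values hold the difference between the groups, which the arrays share. After the group means were taken off, the closest were NAE1 (0.975), a subunit of the enzyme that activates NEDD8, PARP12 (0.844), CAT (0.838), which is catalase, CHURC1 (0.837) and PDCD6 (0.811), over the same 12 arrays, and none of the first 5 was among them. For the members, r with SPHK1 within the groups was 0.36 for SGPL1, -0.11 for S1PR1, -0.54 for S1PR3, -0.37 and -0.26 for the CERS2 probes and -0.49 for ASAH1. That r was 0.28 for SPNS2 and 0.36 for the number of detected probes per array. The named genes have the highest r among 9780 genes with a detected probe, where some high values arise by chance. Within the groups the SPHK1 probe had SDs of only 0.08 and 0.07, and it was detected on 0 control arrays, so no relation is read from these r values.

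**Figure D5:**
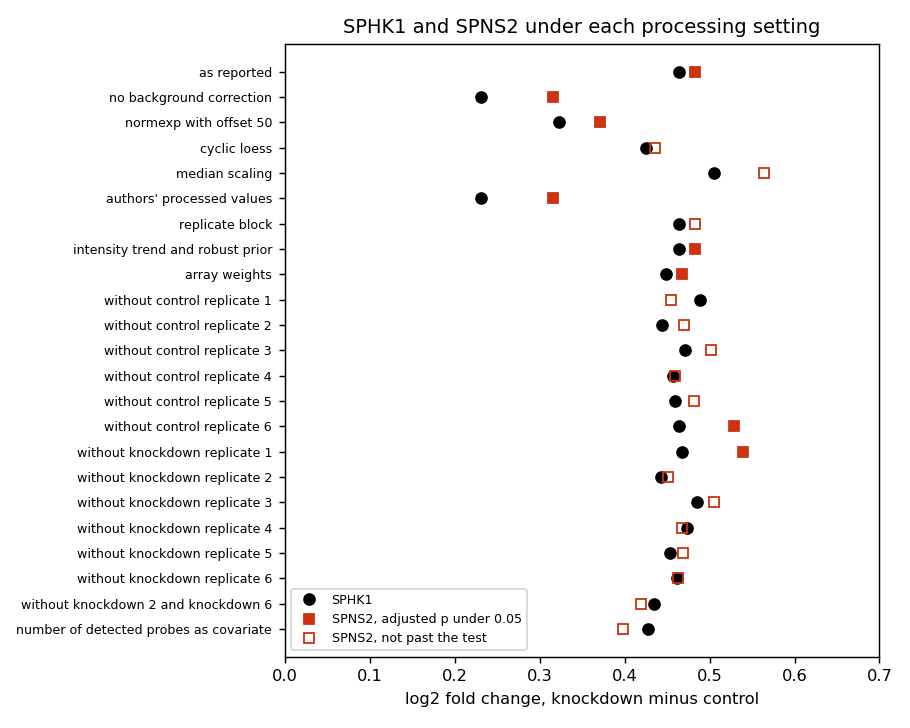
Log2 fold change of SPHK1 (black) and SPNS2 (red, filled where the limma adjusted p was under 0.05) under each way of processing or each array left out. SPHK1 lies between 0.23 and 0.51 and SPNS2 between 0.32 and 0.56, and both are lowest without background correction.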

How the data were processed

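Labelled cRNA of 12 PANC-1 samples was hybridised to Illumina bead arrays. Per the file headers, the deposited table without normalisation pairs, for each array, a linear intensity (signal) with a detection p-value. Which software made both columns is not stated in the labels. The intensity in the authors' second, processed table equalled the quantile normalised signal to within 3.33e-06; limma appears in the submitters' processing notes, with no role given. Groups came from the sample titles, and gene symbols from the platform annotation, updated by gene number through RefSeq (GRCh38.p14). The signal was processed with neqc (offset 16) of limma 3.58.1 in R 4.3.3. That offset shrinks the fold changes of dim probes, but the background correction acts the other way. The log2 difference of SPHK1 was 0.46 with correction and offset and 0.23 without background correction. Probes with detection p under 0.05 on at least 6 arrays (16495 of 47323) were fitted with lmFit and eBayes on the group alone and adjusted over all of them (Benjamini-Hochberg, two-sided, threshold 0.05). A gene was read from its brightest detected probe.

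The members, lists and tests were chosen with earlier results of these data known. The rule named TIMP1, every member probe, up to 4 genes per list with the smallest p, every called gene, and the 5 genes most like SPHK1 by either r. On simulated data for knockdown against control with the real means and spread of 16495 probes, the fit recovered 26 of 40 changes of 0.4 and 37 of 40 changes of 1 (log2), with 10 false calls. The promoter table held windows for 7 of the 10 members. Alternatives covered background correction, normalisation, filter, fit, threshold, arrays left out, a replicate block and the number of detected probes. Figures were drawn with matplotlib 3.10.9.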

Additional observations from a re-analysis of the deposited data

Results flagged for a closer look

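Among 84 groups of 6 values (a member, TIMP1 or named pathway probe in 1 group), 6 held an array far from the others, and chance flags about 1 in 20 groups. Values are normalised log2 intensities. The undetected ASAH1 probe was at 5.95 on control 2 and between 5.65 and 5.75 on the other controls. SPTLC1 was at 11.25 on control 1 and at most 11.07 on the other controls. PLPP2 was at 10.07 on control 4 and between 10.16 and 10.21 on the others. SMPD4 was at 7.37 on knockdown 6 and at most 7.06 on the other knockdown arrays. FHL2 was at 11.33 on knockdown 2 and at least 11.49 on the others. JUN was at 11.02 on knockdown 4 and between 10.87 and 10.90 on the others. The detected SPHK1 probe and SPNS2 had no such array in either group.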

How the results depend on the processing

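The log2 difference of SPHK1 kept its direction under all 22 settings that gave one, a description of a gene chosen with this difference known. Its groups also stayed apart under them. Leaving arrays out or changing only the fit reuses the same normalised values, so the separation was fixed in advance there. It could change only with another background correction or normalisation, and the authors' processed values equalled those without background correction. The difference moved by more than the spread between arrays without background correction (0.23), with a normexp correction and an offset of 50 (0.32) and with the authors' processed values (0.23), and lay between 0.44 and 0.49 when 1 array was left out. The count of member probes called, a description from which no stability is read, was 1 (SPHK1) as reported and 0 with the stricter detection filter, which did not test that probe, or with the number of detected probes as a covariate; the cause of the second was not tested. The count of pathway probes called was 1 (SPNS2) and became 0 with cyclic loess, median scaling, no detection filter, the stricter filter (which did not test SPNS2), a threshold of 0.01, the detected-probe covariate or without knockdown 2 and 6; with 1 array left out it was between 0 and 2, the 2 being SPNS2 and ARRB1 without knockdown 1. All detected probes called numbered 50, and 32 with cyclic loess, 11 with median scaling, 11 without a detection filter, 90 with an intensity trend and a robust prior, 1 at a threshold of 0.01, 2 without knockdown 2 and 6, 0 with the covariate (limma, 1152 at an unadjusted p under 0.05) and 1 to 145 with 1 array left out. With the replicate number as a block there were 28 calls, 1 of them a member (SPHK1, 0.46) and 0 in the pathway lists (SPNS2 limma adjusted p = 0.0725). The labels do not say whether same-numbered arrays share more than a number. The correlations of their deviations ran from -0.11 to 0.19 and 3 of 12 arrays matched their own number best, which does not settle whether they were paired. Of the 28 named pathway genes 18 kept their direction under every setting. Median scaling gave 0.0068 for CCN2, 0.047 for CERT1, 0.049 for EGR1, 0.073 for FHL2, 0.094 for PPP2CA and 0.0036 for RAC1. The covariate gave -0.0091 for FOS, -0.037 for MAPK3 and -0.0087 for SPTSSA, and leaving out knockdown 2 and 6 gave -0.0087 for SP1 and -0.028 for SPTSSA. Signal near background limits SPHK1, S1PR3 and ASAH1, and among the named pathway genes AMOTL2, FOS, GBA2, GNAQ and SMPD4.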

Other observations

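Of the 92 pathway genes, 20 had probes that were detected on fewer than 6 arrays, 15 of them on no array by any probe. Among these 15 were CERS1, CERS3 and CERS4, which make ceramides of other acyl chain lengths than CERS2, the receptor S1PR4, the exporter MFSD2B of red cells and platelets, and APOM, the plasma carrier of the lipid. The phosphatase SGPP2 was detected on 1 control array and 0 knockdown arrays, so neither SGPP1 nor SGPP2 was measured well enough to compare. SPTLC2, the catalytic partner of SPTLC1, was detected on 1 control and 3 knockdown arrays. ORMDL3, a regulator of that enzyme, was detected on 0 control and 2 knockdown arrays and ORMDL2 on 1 and 0.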
